A study of Mus musculus with 12 samples.

Results

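The iron and heme genes described here were 10 genes that export iron from macrophages, break down heme, store iron in ferritin or set the iron supply of the cell: Slc40a1, Hmox1, Blvra, Blvrb, Ftl1, Fth1, Tfrc, Slc11a1, Ncoa4 and Ireb2. They were taken by symbol from 55401 listed genes, each symbol stood on 1 row, and all 10 passed the filter on low counts in both comparisons. The set was chosen by role around Slc40a1 and Hmox1, which were selected on their low counts in AMPK-KO tumor-associated macrophages (TAMs), so the AMPK-KO and WT values of the 10 genes are given as a description, with no p-value, and nothing is read from their calls.

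Macrophages take up heme and hemoglobin from dying red cells, open the heme ring and either store the freed iron or return it to the circulation. HMOX1 (heme oxygenase 1) opens the ring and yields biliverdin, iron and carbon monoxide, and the biliverdin reductase BLVRA carries the product on to bilirubin. BLVRB is also named a biliverdin reductase. Ferroportin, the product of Slc40a1, is the known iron exporter of mammalian cells. Ferritin, built of the FTL1 light and FTH1 heavy chains, stores iron, and NCOA4 delivers ferritin to the lysosome for breakdown. The transferrin receptor TFRC brings iron in, and SLC11A1 (NRAMP1) moves metal ions out of the phagosome.

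Bulk RNA-seq was made from TAMs sorted by flow cytometry from mouse tumors, and the methods name subcutaneous B16-F10 melanoma, a C57BL/6 line. The 12 samples form 4 groups of 3. WT TAMs came from AMPKfl/fl mice and AMPK-KO TAMs from mice labelled AMPKfl/flLyz2cre/cre, so both groups carry the floxed alleles, and the Lyz2 promoter that drives Cre is active in macrophages and also in neutrophils. According to the methods these tumors were taken 15 days after implantation. Early TAMs came from day 8 tumors and Late TAMs from day 15 tumors of mice labelled WT, with no floxed allele or Cre named. Every sample is labelled as untreated. The methods state that the mice were 5 weeks old and that tumors were implanted in females, while the labels give neither age nor sex. Nothing says that the replicates were separate animals, so the spread between samples may be partly technical.

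Library totals ran from 71019494 to 84470374 counts. Prkaa1, which encodes the AMPKα1 catalytic subunit, had 4959, 4535 and 5165 counts in WT TAMs and 3467, 3285 and 3297 in AMPK-KO TAMs, 1.51-fold lower, on counts over the whole gene that may include exons outside the deletion. Lyz2, the locus that carries Cre, had 671 to 975 counts in the WT libraries and 676 to 1088 in the AMPK-KO libraries, against 88212 to 249165 in the Early and Late libraries. The WT label names no Cre, yet Lyz2 was as low there as in AMPK-KO TAMs, and the cause was not tested. The genotype field of AMPK-KO replicates 2 and 3 writes Lyz3 and Lyz4 where their titles write Lyz2. Summed counts of 4 Y-linked genes were 9229 to 12183 in the WT and AMPK-KO libraries, 3435 to 4035 in the Early libraries and 0 to 4 in the Late libraries, so the counts of the WT, AMPK-KO and Early libraries go against the stated female sex, and a difference in the sex of the mice cannot be told apart from tumor stage. The 10 macrophage markers were all present, with summed levels of 9682 to 14079 CPM (counts scaled to the same library total).

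Transcripts of several of these genes carry an iron-responsive element (IRE), a hairpin bound by the iron regulatory proteins, 1 of which is encoded by Ireb2. Binding in a 5′ UTR blocks translation, and binding in a 3′ UTR protects the transcript, so in textbook terms iron scarcity raises Tfrc transcripts, whereas ferritin is held down at the protein step, which RNA counts do not show. Hairpins were searched on the transcript strand as a bulged C, a stem of 5 pairs with G-T pairs allowed and a 6-base loop. The loop was CAGTG followed by A, C or T. The 5′ UTRs of Fth1, Ftl1 and Slc40a1 and the 3′ UTR of Tfrc held matches, against 23 of 20899 genes with a 5′ UTR (0.11%) and 100 of 21022 with a 3′ UTR (0.476%). The matches are shown because they separate the transcripts with a 5′ hairpin from that with a 3′ one. They are 29 bases each from the GRCm38 genome, read in the direction of the transcript, with the loop in capitals.
Fth1, chr19:9982732-9982760, plus strand, 5′ UTR: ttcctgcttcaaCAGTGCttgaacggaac
Ftl1, chr7:45459779-45459807, minus strand, 5′ UTR: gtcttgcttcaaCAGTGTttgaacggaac
Slc40a1, chr1:45925465-45925493, minus strand, 5′ UTR: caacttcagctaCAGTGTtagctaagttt
Tfrc, chr16:32631219-32631247, plus strand, 3′ UTR: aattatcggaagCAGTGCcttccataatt
Tfrc, chr16:32631598-32631626, plus strand, 3′ UTR: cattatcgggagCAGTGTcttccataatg
Tfrc, chr16:32631663-32631691, plus strand, 3′ UTR: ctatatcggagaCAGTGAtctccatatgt
Tfrc, chr16:32631710-32631738, plus strand, 3′ UTR: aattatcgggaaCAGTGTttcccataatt
Tfrc held 4 matches and each of the other 3 genes held 1. No match was found in the UTRs of the other 6 genes, which says only that these letters are not in the annotated windows.

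In AMPK-KO TAMs the iron exporter and the heme-degrading enzyme stood at well under the WT level. Both ferritin chains stood lower by a smaller amount, and Tfrc and Ncoa4 lay nearer to WT. Levels below are CPM scaled by TMM factors (trimmed mean of M values, which correct for the makeup of each library), and fold changes are those of the fit across all genes, with their standard error (SE). Since the samples are bulk RNA, fewer cells of a type and less RNA per cell cannot be told apart.

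Slc40a1 (ENSMUSG00000025993.10, GRCm38 chr1:45908068-45926523, minus strand) was at 127, 124 and 132 CPM in WT TAMs and at 23.5, 23.6 and 24.9 CPM in AMPK-KO TAMs. The groups did not come near each other, and the mean went from 128 ± 3.81 CPM to 24.0 ± 0.783 CPM (SD, n = 3) (log2 fold change -2.41, SE 0.06), 5.31-fold lower. Hmox1 (ENSMUSG00000005413.8, chr8:75093621-75100589, plus strand) was at 3134, 3390 and 3259 CPM in WT TAMs and at 1244, 1249 and 1326 CPM in AMPK-KO TAMs. It too was lower in each AMPK-KO sample than in any WT sample, with a log2 fold change of -1.36 (SE 0.04), 2.56-fold lower.

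The biliverdin reductase genes Blvra and Blvrb differed far less. Blvra (chr2:127070665-127097084, plus strand) was at 81.7, 85.5 and 84.9 CPM in WT TAMs and at 73.6, 71.3 and 70.0 CPM in AMPK-KO TAMs (log2 fold change -0.23, SE 0.05) without overlap. Blvrb (chr7:27447978-27466144, plus strand) was at 187, 212 and 191 CPM in WT TAMs and at 164, 187 and 191 CPM in AMPK-KO TAMs (log2 fold change -0.12, SE 0.07). It was the only gene of the 10 whose WT and AMPK-KO samples overlapped.

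**Figure D1:**
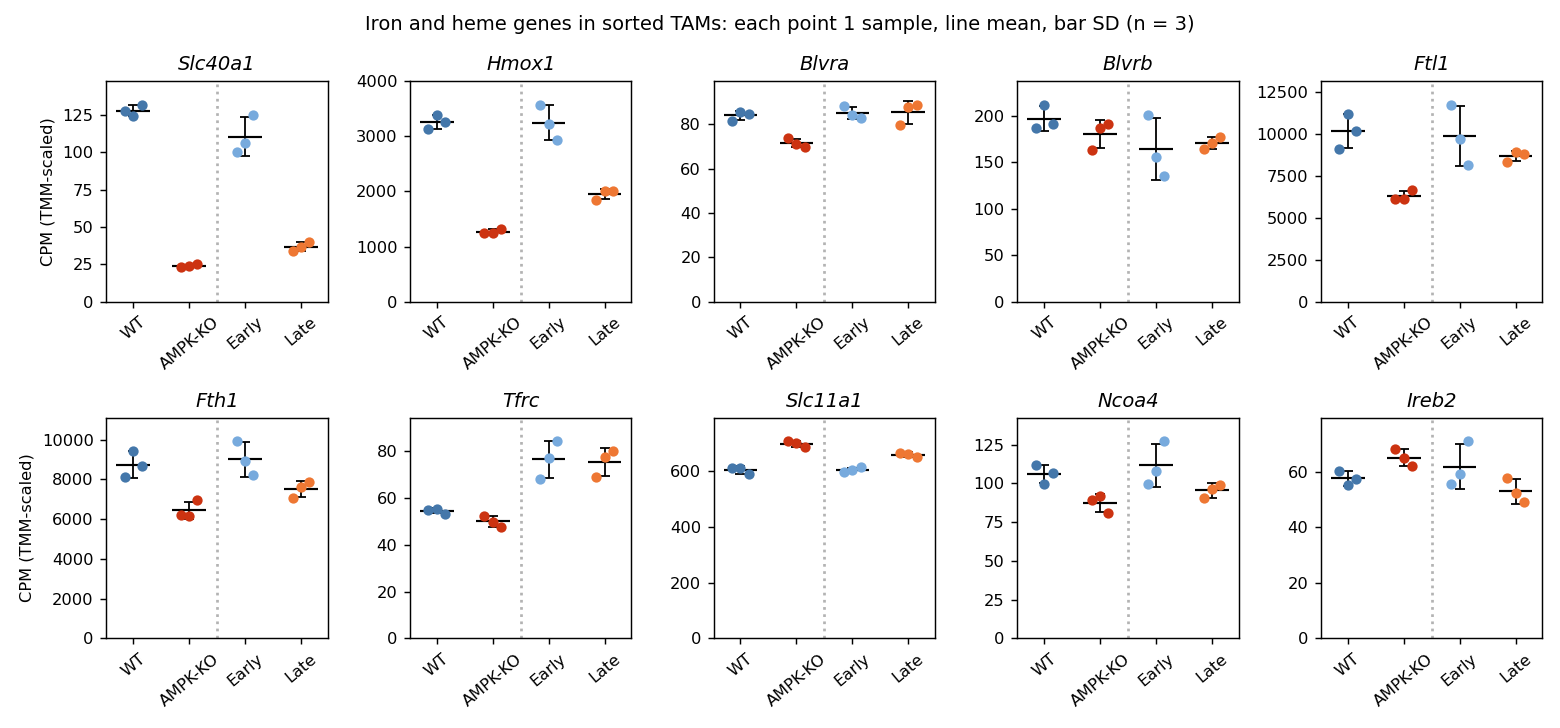
TMM-scaled CPM (linear axes from 0) of the 10 genes in WT, AMPK-KO, Early and Late TAMs, with 1 point per sample, a line for the mean and a bar for the SD (n = 3), and a dotted line between the count tables, which were scaled separately. Slc40a1 lies at 23.5 to 24.9 CPM in AMPK-KO and 34.2 to 40.2 CPM in Late TAMs, below the 100 to 132 CPM of the WT and Early samples.

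Ferritin transcripts were among the most abundant of the cell, and both chains were lower in AMPK-KO TAMs. Ftl1 (chr7:45457944-45459884, minus strand) was at 9132, 11166 and 10190 CPM in WT TAMs and at 6116, 6140 and 6671 CPM in AMPK-KO TAMs (log2 fold change -0.69, SE 0.06). Fth1 (chr19:9980598-9985098, plus strand) was at 8104, 9437 and 8680 CPM in WT TAMs and at 6205, 6164 and 6944 CPM in AMPK-KO TAMs (log2 fold change -0.44, SE 0.06). For neither chain did an AMPK-KO sample reach the lowest WT sample. Together the chains took 1.75 to 2.03% of all counts in WT TAMs and 1.23 to 1.36% in AMPK-KO TAMs.

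The light chain was lower by more than the heavy chain. Counts of Ftl1 over Fth1, each divided by its exon length, gave 2.92 to 3.06 in WT TAMs and 2.49 to 2.58 in AMPK-KO TAMs, and the ranges did not overlap. The lengths, 1340 bases for Ftl1 and 3469 for Fth1, merge the exons of all annotated transcripts. The size of the ratio depends on them, so only its difference between groups is read here. Without lengths, the log2 of Ftl1 over Fth1 counts was 0.172 to 0.243 in WT and -0.0580 to -0.00567 in AMPK-KO TAMs. Of 16 rows whose symbol begins with Ftl or Fth, 6 held counts, and the pseudogene copies Ftl1-ps1, Ftl2-ps and Ftl1-ps2 added 2.32 to 3.08% to the Ftl1 counts over all 12 samples. Reads that fit both a gene and its copies could have been split between them in counting. The copies had the same sign as Ftl1, at log2 fold changes of -0.64 for Ftl1-ps1 and -0.69 for Ftl2-ps, and the part of shared reads in this was not tested.

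**Figure D2:**
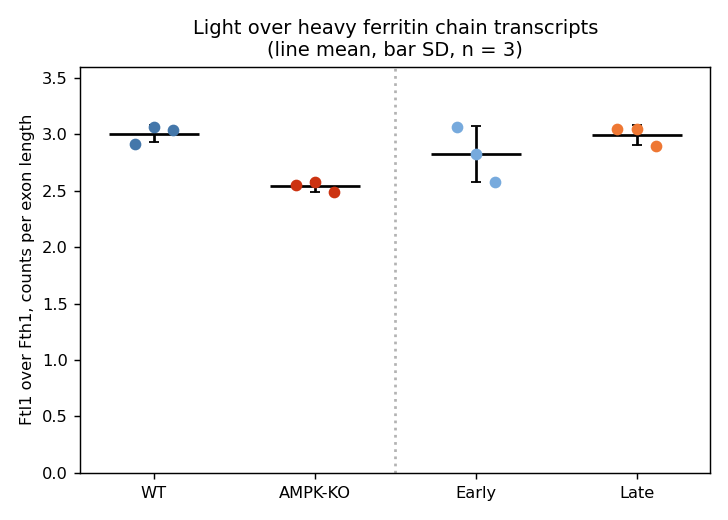
Ftl1 over Fth1, as counts per exon length (linear axis from 0), in WT, AMPK-KO, Early and Late TAMs, with 1 point per sample, a line for the mean and a bar for the SD (n = 3). The AMPK-KO samples lie at 2.49 to 2.58, below the 2.92 to 3.06 of WT, while the Early samples spread from 2.58 to 3.07. The height of all points depends on the exon lengths used.

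Genes for iron entry, ferritin turnover and iron sensing differed from WT by less than the ferritin chains. Tfrc (chr16:32608920-32632794, plus strand) was at 54.7, 55.5 and 53.4 CPM in WT TAMs and at 52.4, 49.8 and 47.8 CPM in AMPK-KO TAMs (log2 fold change -0.13, SE 0.06). Ncoa4 (chr14:32159865-32179855, plus strand) was at 112, 99.6 and 107 CPM in WT TAMs and at 89.6, 91.6 and 81.0 CPM in AMPK-KO TAMs (log2 fold change -0.28, SE 0.07). Both were lower in each AMPK-KO sample than in any WT sample, by small amounts.

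Slc11a1 and Ireb2 had the opposite sign. Slc11a1 (chr1:74375195-74386062, plus strand) was at 611, 609 and 587 CPM in WT TAMs and at 705, 699 and 684 CPM in AMPK-KO TAMs (log2 fold change 0.21, SE 0.04). Ireb2 (chr9:54863789-54912530, plus strand) was at 60.5, 55.3 and 57.3 CPM in WT TAMs and at 68.3, 65.0 and 62.1 CPM in AMPK-KO TAMs (log2 fold change 0.17, SE 0.06). The AMPK-KO samples of both genes lay above all WT samples.

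At an adjusted p under 0.05 (edgeR's quasi-likelihood test, Benjamini-Hochberg adjustment over 17532 genes), 6 of the 10 genes were called lower and 1 higher, where 21.1% of all genes were called, 9.78% lower and 11.3% higher. Slc40a1 and Hmox1 were also past an absolute log2 fold change of 1, as were 3.34% of all genes. Groups did not overlap for 9 of the 10 genes, against 37.2% of all genes (18.4% lower and 18.8% higher). The median log2 fold change was -0.25 over the 10 genes and -0.0037 over all genes tested. Since this contrast was known when the genes were chosen, these counts are a description only.

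Late and Early TAMs form a separate set of samples, in which the same order was seen at the top of the list. Slc40a1 and Hmox1 were lower in Late TAMs, both with adjusted p under 0.05, and the other 8 genes did not pass the test. Adjusted p-values in this comparison are from edgeR's quasi-likelihood test over 17630 genes.

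Slc40a1 was at 100, 106 and 125 CPM in Early TAMs and at 34.2, 36.4 and 40.2 CPM in Late TAMs. All Late samples lay below all Early samples, and the mean fell from 110 ± 13.0 CPM to 36.9 ± 3.00 CPM (SD, n = 3), with a log2 fold change of -1.58 (SE 0.10, edgeR adjusted p = 2.65e-05), 2.99-fold lower. Hmox1 was at 3574, 3230 and 2937 CPM in Early TAMs and at 1842, 2013 and 2011 CPM in Late TAMs. It fell by 0.73 on the log2 scale (SE 0.08, edgeR adjusted p = 6.39e-04), 1.66-fold lower, again without overlap.

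Neither ferritin chain passed the test, and the Early samples of Ftl1 spread more widely than the Late ones. Ftl1 was at 11749, 9730 and 8154 CPM in Early TAMs and at 8338, 8937 and 8821 CPM in Late TAMs, with overlap and a log2 fold change of -0.18 (SE 0.11, edgeR adjusted p = 0.365). Fth1 was at 9910, 8909 and 8196 CPM in Early TAMs and at 7079, 7604 and 7887 CPM in Late TAMs, without overlap, with a log2 fold change of -0.26 (SE 0.08, edgeR adjusted p = 0.0771). Without Early replicate 3, whose ferritin levels were the lowest of its group, the edgeR adjusted p was 0.0337 for Ftl1 and 0.0127 for Fth1, the lowest of ranges over the 13 alternatives that reached 0.793 and 0.233. Ftl1 over Fth1 per exon length was 2.58 to 3.07 in Early TAMs and 2.90 to 3.05 in Late TAMs, ranges that overlap.

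Of the remaining genes, Slc11a1 was at 595, 603 and 612 CPM in Early TAMs and at 665, 659 and 648 CPM in Late TAMs, with a log2 fold change of 0.12 (SE 0.06, edgeR adjusted p = 0.250). Its Late samples lay above its Early samples, but the difference did not pass the test. Ncoa4 was at 99.8, 108 and 127 CPM in Early TAMs and at 90.3, 96.7 and 99.2 CPM in Late TAMs, with a log2 fold change of -0.23 (SE 0.10, edgeR adjusted p = 0.180). Ncoa4 did not overlap either, though its highest Late sample lay just under its lowest Early one, and without Early replicate 1 the edgeR adjusted p was 0.0441, in a range over the alternatives that reached 0.435. Blvra (0.00), Blvrb (0.06), Tfrc (-0.02) and Ireb2 (-0.22) had log2 fold changes with edgeR adjusted p from 0.236 to 0.978, and their samples overlapped.

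**Figure D3:**
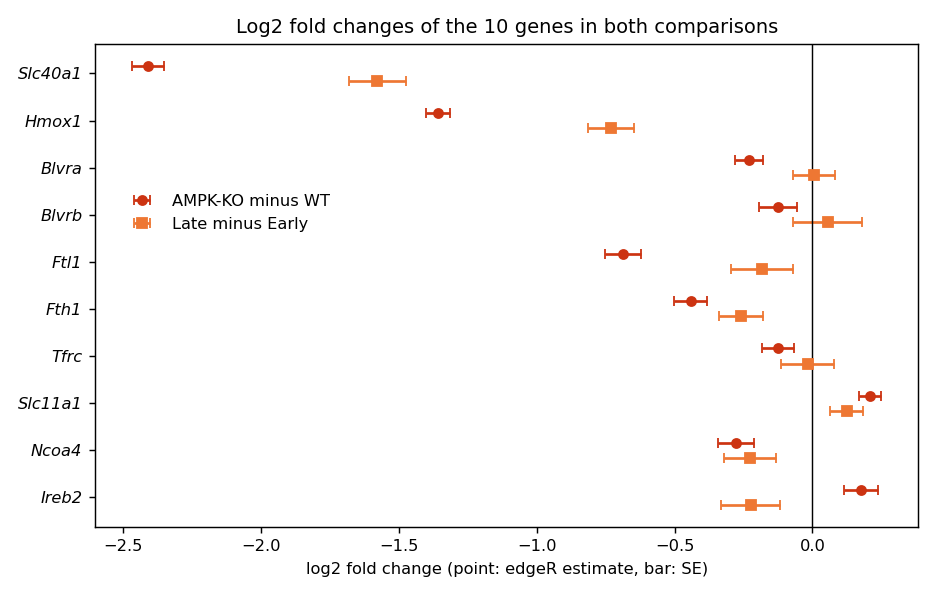
Log2 fold change (horizontal axis) of each of the 10 genes in AMPK-KO minus WT TAMs (circles) and Late minus Early TAMs (squares), with bars for the SE of the edgeR fit (n = 3 samples in each group). Slc40a1 lies at -2.41 and -1.58 and Hmox1 at -1.36 and -0.73, while the other 8 genes lie between -0.69 and 0.21.

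The 2 lower genes are to be set against 9.18% of all genes called in this comparison, 4.88% lower and 4.31% higher, and Slc40a1 alone was past an absolute log2 fold change of 1, as were 1.87% of all genes. Samples did not overlap for Slc40a1, Hmox1, Fth1, Slc11a1 and Ncoa4, 5 of the 10 genes, where 31.2% of all genes did not overlap (15.6% in either direction). The median log2 fold change was -0.20 over the 10 genes and 0.0027 over all genes tested. The tables were scaled separately, so levels are only set side by side: Slc40a1 averaged 128 CPM in the WT group and 36.9 CPM in the Late group, although tumors of both are given as day 15. These groups also differed in labelled genotype and in their Lyz2 and Y-linked counts, as given above.

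Per kilobase of exon, with the exons of all annotated transcripts of a gene merged, the order of levels was Ftl1, Fth1, Hmox1, Slc11a1, Blvrb and Blvra in all 4 groups. A merged length can exceed that of any single transcript, so the order between genes rests in part on the annotation. In WT TAMs Ftl1 averaged 7584 CPM per kb, Fth1 2520, Hmox1 1862, Slc11a1 163, Blvrb 70.7 and Blvra 34.3 CPM per kb, and no neighbours in this order overlapped. Slc40a1 came next in WT TAMs at 14.2 ± 0.424 CPM per kb (SD, n = 3), above Ncoa4, Tfrc and Ireb2, and was last of the 10 in AMPK-KO TAMs at 2.67 ± 0.0870 CPM per kb. It was also last in Late TAMs at 4.10 ± 0.334 CPM per kb, whereas in Early TAMs, at 12.3 ± 1.44 CPM per kb, it could not be ranked against Tfrc and Ncoa4, whose samples overlapped with it.

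Markers of other cells moved with these groups, and their part in the differences was not tested. For single markers in all the lists below, higher or lower means an edgeR adjusted p under 0.05. Of all genes, 21.1% passed it in AMPK-KO TAMs and 9.18% in Late TAMs. Of the erythroid list, the 4 globin genes were lower in AMPK-KO TAMs among 6 genes tested, with a summed level of 28.6 to 31.6 CPM in WT and 11.8 to 13.9 CPM in AMPK-KO samples. In the stage comparison 1 of 7, Hbb-bs, was lower (edgeR adjusted p = 0.0497), a call that held in only 5 of 13 alternatives. The erythroid sum was 17.5 to 21.9 CPM in Early and 15.6 to 16.9 CPM in Late samples. The defining erythroid gene Slc4a1 was at 0 in all samples. Of 9 B16 melanoma markers, 8 were lower in AMPK-KO TAMs (summed 1385 to 1401 CPM in WT, 890 to 924 CPM in AMPK-KO) and 7 were lower in Late TAMs (2376 to 2428 CPM in Early, 1169 to 1743 CPM in Late), and none of the 9 was at 0. The 7 calls in Late TAMs held in 5 (Oca2) to 11 (Tyrp1 and Gpnmb) of 13 alternatives. One of the melanoma markers, Gpnmb, is also made by macrophages.

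T cell markers were higher for 6 of 7 genes in AMPK-KO TAMs (100 to 113 CPM summed in WT, 182 to 188 CPM in AMPK-KO) and for 3 of 7 in Late TAMs (162 to 174 CPM in Early, 203 to 239 CPM in Late). Dendritic cell markers were higher for 6 of 7 genes in AMPK-KO TAMs (80.7 to 91.1 CPM in WT, 125 to 132 CPM in AMPK-KO), and in Late TAMs 1 was higher and 1 lower (89.7 to 98.1 CPM in Early, 93.5 to 100.4 CPM in Late). Neutrophil markers were higher for 4 of 7 genes in AMPK-KO TAMs (112 to 119 CPM in WT, 184 to 186 CPM in AMPK-KO) with Ly6g and Ngp at 0. Most of these sums was Csf3r, with means of 96.5 CPM in WT and 154 CPM in AMPK-KO TAMs. The means of S100a8 and S100a9 in these groups were only 0.697 to 2.47 CPM. Of the neutrophil markers 2 of 6 were lower in Late TAMs (121 to 128 CPM in Early, 105 to 110 CPM in Late). Proliferation markers were lower for 9 of 12 genes in AMPK-KO TAMs (1460 to 1467 CPM in WT, 1200 to 1269 CPM in AMPK-KO) and higher for 11 of 12 in Late TAMs (1325 to 1457 CPM in Early, 1838 to 1908 CPM in Late). The macrophage markers themselves overlapped in sum between WT (12650 to 14079 CPM) and AMPK-KO (12838 to 13246 CPM), with Csf1r and Itgam higher and Cd68 lower. In Late TAMs C1qa was higher and Cd14 lower (called in 8 and 10 of 13 alternatives). The macrophage sums were 9682 to 12134 CPM in Early and 12635 to 12744 CPM in Late samples. Other marker calls were also lost in some alternatives, such as Flt3 in AMPK-KO TAMs and Pcna in Late TAMs, each called in 5 of 13.

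**Figure D4:**
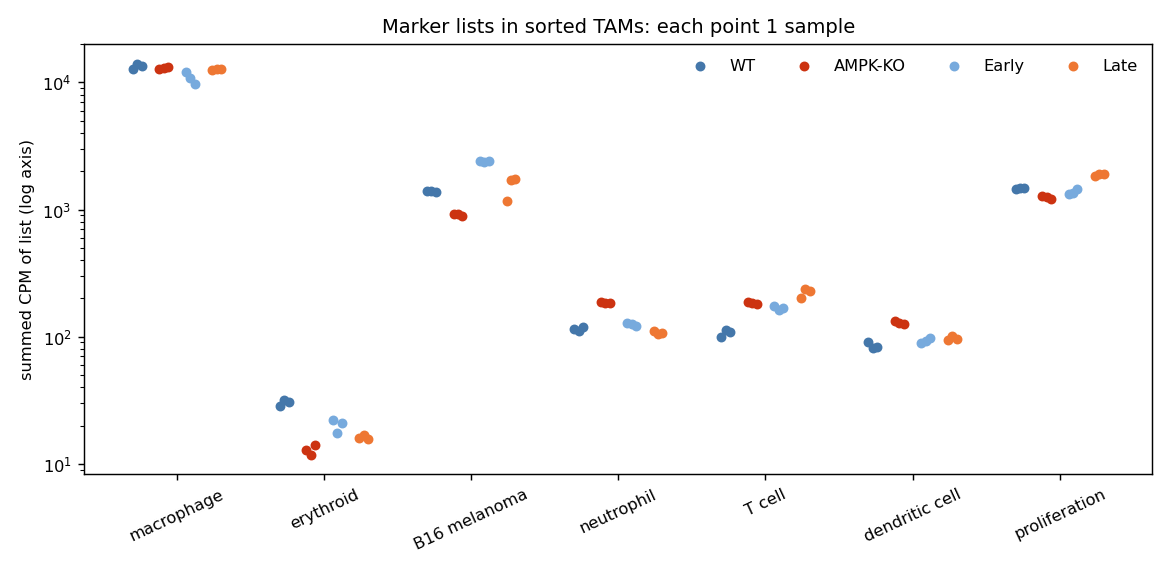
Summed CPM (log axis) of 7 marker lists in WT, AMPK-KO, Early and Late TAMs, 1 point per sample. The macrophage sums lie at 9682 to 14079 CPM over all samples, with every Late sample above every Early sample. The erythroid sums lie at 11.8 to 31.6 CPM, and the B16 melanoma sums are lower in AMPK-KO than in WT samples and lower in Late than in Early samples.

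A wider set of 80 iron and heme genes was sorted into 7 lists by known role. In AMPK-KO TAMs 10 of the 74 tested were higher and 15 lower, where 11.3% of all genes were called higher and 9.78% lower, none of the 74 past an absolute log2 fold change of 1, with a median of -0.03 against -0.0037 for all genes. In Late TAMs 2 of 75 were higher and 7 lower, where 4.31% of all genes were called higher and 4.88% lower, 3 of the 75 past that fold, with a median of 0.05 against 0.0027. Adjusted p-values for the genes named next are from edgeR. The lists were chosen with earlier results of these data known, so these p-values are not those of genes picked blind.

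Among genes for heme and hemoglobin uptake, 4 of 9 were lower and 2 higher in AMPK-KO TAMs, where 21.1% of all genes were called. Cd163, the scavenger receptor for hemoglobin bound to haptoglobin, went from 164 ± 4.85 to 96.1 ± 7.28 CPM (adjusted p = 1.37e-05, log2 fold change -0.77). Slc48a1, which carries heme from the lysosome to the cytosol, went from 285 ± 4.38 to 175 ± 5.47 CPM (adjusted p = 3.31e-06, log2 fold change -0.70). Haptoglobin itself, Hp, rose by 0.86 on the log2 scale (adjusted p = 1.77e-04), and the porphyrin exporter Abcg2 rose by 0.55 (adjusted p = 0.00633).

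In Late TAMs 2 of the 9 were lower and 1 higher, where 9.18% of all genes were called. Cd163 went from 51.1 ± 5.21 to 16.7 ± 3.39 CPM (adjusted p = 1.90e-04, log2 fold change -1.62). Hp fell by 2.49 on the log2 scale (adjusted p = 1.15e-05), opposite in sign to its rise in AMPK-KO TAMs. The hemopexin receptor Lrp1 was higher by 0.31 (adjusted p = 0.0420), a call that was lost in 7 of 13 alternatives, those without Early replicate 3 or any Late replicate among them. Slc48a1, at 273 CPM in Early and 209 CPM in Late TAMs, missed the threshold (adjusted p = 0.0506). It was called in 6 of 13 alternatives, DESeq2 and those without Early replicate 1 or 3 among them, with adjusted p from 0.00543 to 0.188.

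Genes of iron uptake and reduction were lower wherever they were called. In AMPK-KO TAMs 5 of 13 were lower and none was higher, where 9.78% of all genes were called lower and 11.3% higher. Among the lower ones was Snx3, a sorting nexin that returns the transferrin receptor to the surface, at -0.47 on the log2 scale (adjusted p = 1.30e-04). Steap3, the ferrireductase of the transferrin cycle, changed by -0.37 (adjusted p = 9.76e-04). In Late TAMs 3 of 13 were lower, where 4.88% of all genes were called lower. Snx3 was lower there too, by -0.36 on the log2 scale (adjusted p = 0.00670, and 0.0523 without Late replicate 2 in a range from 3.18e-05), and Lcn2, which binds siderophores, by -2.90 (adjusted p = 4.62e-04) from only 2.66 ± 0.305 CPM.

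Heme synthesis gave 2 of 12 genes with a rise and 2 with a drop in AMPK-KO TAMs, where 21.1% of all genes were called. None was called in Late TAMs, where 9.18% of all genes were called. By edgeR 1 of the 12 had an unadjusted p under 0.05 there, and DESeq2 called 1. Alas1, the first and rate-limiting enzyme outside the red cell line, went from 68.0 ± 2.92 to 99.7 ± 3.12 CPM (adjusted p = 6.54e-05, log2 fold change 0.55), and Slc25a38, the mitochondrial glycine carrier, was higher by 0.41 (adjusted p = 0.0126). Abcb6 changed by -0.56 (adjusted p = 0.00398). Of the ferroxidases, which pair with ferroportin in export, Cp was the only gene tested in AMPK-KO TAMs and was higher by 0.51 (adjusted p = 9.77e-04).

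Iron sensing and chaperone genes gave 1 higher and 2 lower of 9 in AMPK-KO TAMs, where 21.1% of all genes were called. The iron chaperone Pcbp1 changed by -0.23 (adjusted p = 0.00447) and Pcbp4 by -0.49 (adjusted p = 0.0215, lost in 4 of 13 alternatives, without AMPK-KO replicate 1 or 2 or WT replicate 2 or 3). Fbxl5, the iron-sensing ligase adaptor that removes the IREB2 protein, was higher by only 0.16 (adjusted p = 0.0459), a call lost in 9 of 13 alternatives, each replicate left out among them. In Late TAMs, where 9.18% of all genes were called, Fbxl5 was the 1 gene of 9 called. It fell by 0.75 on the log2 scale (adjusted p = 6.92e-04), from 115 ± 10.9 to 68.8 ± 2.65 CPM. Of 17 mitochondrial iron and iron-sulfur cluster genes none was called in AMPK-KO TAMs, where by edgeR 2 had an unadjusted p under 0.05 and DESeq2 called 0, and in Late TAMs Fdxr alone was higher, by 0.62 (adjusted p = 0.0260, lost in 5 of 13 alternatives, those without Early replicate 2 or any Late replicate among them).

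Transcription factors known to act on Hmox1, Slc40a1 or ferritin gave 4 higher and 2 lower of 13 in AMPK-KO TAMs. Of all genes, 11.3% were called higher and 9.78% lower. The higher call of Maff (edgeR adjusted p = 0.0450) held in only 6 of 13 alternatives. Spic, known for its part in the development of heme-recycling macrophages, went from 15.0 ± 1.74 to 7.64 ± 0.385 CPM (adjusted p = 1.80e-04, log2 fold change -0.98). Mafg, a small MAF partner of NRF2 and BACH1, changed by -0.47 (adjusted p = 1.05e-04), and Hif1a and the liver X receptor gene Nr1h3 were each higher by 0.40 (adjusted p = 0.00243 and 0.00147). Nfe2l2, which encodes NRF2, stood at 0.09 on the same scale (adjusted p = 0.209), and Bach1, a repressor of Hmox1, was higher by 0.28 (adjusted p = 0.0112), a call lost without AMPK-KO replicate 2 or WT replicate 3 in a range of 5.42e-04 to 0.0665. In Late TAMs, where 9.18% of all genes were called, Hif1a was the 1 factor called and fell by 0.61 (adjusted p = 0.00773). Spic stayed at 10.8 and 10.9 CPM in the stage comparison.

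Over the 12 samples, with log2 CPM centred within each table, the genes whose pattern was most like that of Slc40a1 among 16802 compared were Snx2 (Pearson r = 0.994), Cd5l (0.993), Mindy1 (0.990), Srxn1 (0.989) and Spp1 (0.989). Those most like Hmox1 were Akr1b8 (0.995), Srxn1 (0.994), Gas6 (0.994), Plin2 (0.994) and Ptgr1 (0.993). Srxn1, which encodes sulfiredoxin, was on both lists. Slc40a1 and Hmox1 correlated with each other at r = 0.980. Both were selected on their low counts in AMPK-KO TAMs, so this value follows in part from that choice. Slc11a1 ran opposite to both (r = -0.972 and -0.983), and Blvrb showed little likeness to Slc40a1 (r = 0.117). The 12 points fall into 4 groups, so these values describe mainly group means, and by Spearman's rho none of the 5 nearest genes of either list was among the 5 nearest.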

How the data were processed

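RNA from sorted TAMs was sequenced in 12 samples. According to the methods and the submitters' processing notes, the authors aligned reads with HISAT2 and counted them per gene with featureCounts (versions, strand and multi-mapping settings are not given in the sources used here). The notes list mm10 and GRCm38, the methods GRCh38, and 54349 of 55401 gene IDs matched GENCODE M21 (GRCm38) with version. The deposited values are raw counts per gene in 1 table per comparison, each fitted alone.

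Genes were filtered with filterByExpr and tested with edgeR 4.0.16 (quasi-likelihood, TMM, two-sided, Benjamini-Hochberg over all genes tested). DESeq2 1.42.0 and other settings were alternatives, 13 per comparison. SE is the log2 fold change over the root of F. Scripts were tested on simulated data. The members and lists were chosen with earlier results of these data known. Genes named from each wider list were at most the 2 higher and 2 lower with the smallest adjusted p, and other named genes of the wider and marker lists were chosen after their values were seen. Replicate totals were 71019494 to 84470374 counts, and replicates differed by more than sampling noise. Some results that the rule would name are not reported here.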

Additional observations from a re-analysis of the deposited data

How the results depend on the processing

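In Late TAMs Slc40a1 and Hmox1 kept their direction and stayed under an adjusted p of 0.05 in all 13 alternatives, with log2 fold changes of -1.64 to -1.48 and -0.80 to -0.65. In AMPK-KO TAMs, where they were selected on their low counts, their log2 fold changes ranged from -2.44 to -2.39 and from -1.39 to -1.33, which is no independent support. All genes called in AMPK-KO TAMs numbered 2414 to 4039 when each replicate was left out and 585 with an absolute log2 fold change above 1. Of the 10 genes 6 to 8 and 2 were then called, and of the wider genes 19 to 25 and 0. In Late TAMs all genes called numbered 653 to 2835 without a replicate, 2447 with DESeq2, 936 with no filter beyond 1 count and 329 with the fold threshold. Of the 10 genes 2 to 4 were called without a replicate (4 without Early replicate 3) and 1 with the fold threshold, and of the wider genes 6 to 14 (14 without Early replicate 1) and 3.

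With the replicate number as a block, 3862 genes were called in AMPK-KO and 1417 in Late TAMs. Deviations of same-numbered samples correlated at only -0.00390 to 0.0423 and 0.0132 to 0.0255, so the numbers were not taken as pairs.

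In AMPK-KO TAMs the calls of Blvra without AMPK-KO replicate 2 and of Ncoa4 without WT replicate 3 were lost and that of Ireb2 without WT replicate 1 was gained. In Late TAMs Fth1 was called with DESeq2 (adjusted p = 0.0328, in a range of 0.0127 to 0.233). Among the 10 genes, signs turned in log2 fold changes near 0 in Late TAMs: Blvra was at -0.00885 with upper-quartile factors and at -0.0251 to 0.0539 without a replicate, Blvrb at -0.0660 to 0.229 without a replicate (below 0 without Early replicate 3), and Tfrc at -0.0931 to 0.0559 (above 0 without Early replicate 3 or Late replicate 1). The causes were not tested. Other scalings moved the median of all genes by at most 0.014.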
